A study of Talpa occidentalis and Mus musculus with 35 samples.

Results

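The genes described here are the cytokines, chemokines and their receptors of the mole: the interleukins, colony-stimulating factors (CSF), interferons, tumour necrosis factor (TNF) superfamily ligands and chemokines, with the receptors that bear matching symbols. They were chosen by symbol, from the names on the gene lines of the annotation of the mole assembly talOcc3, after a copy suffix was removed. The choice gave 156 gene lines under 138 symbols, of 23336 gene lines and 16196 symbols in all. Of these symbols, 64 were ligands on 76 lines and 71 were receptors on 77 lines. The other 3 were IL1RN and IL36RN, antagonists that occupy a receptor without activating it, and IL4I1, a secreted amino acid oxidase that is neither ligand nor receptor.

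The study sequenced RNA of mole and mouse gonads in 35 libraries, 19 from moles and 16 from mice, because female moles form ovotestes. Mole groups were ovotestis and testis at embryonic day 15, with 2 libraries each, and ovarian part, testicular part and whole testis both at postnatal day 7 (3 libraries each) and in adulthood (2 each). Mouse groups of 2 libraries were CD1 ovary and testis at embryonic day 13.5, at postnatal day 7 and at 10 weeks, and ovaries at embryonic day 13.5 of wild-type B6 and of Fgf9 mutant embryos. The annotation holds gene models and no value per library, so expression of these genes was not analysed here, and library depth is unknown. There is 1 set of models, with no replicates and hence no test of any difference below: every value describes genes, and spreads are those between genes.

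Cytokines are secreted or membrane-bound proteins that bind receptors on nearby cells. Interleukin and CSF receptors of class I and interferon receptors of class II signal through JAK kinases and STAT factors, IL1 receptors through MYD88 and IRAK kinases, and TNF receptors through TRAF adaptors, whereas chemokine receptors are G protein-coupled and steer cell migration. In the gonad, CSF1 and its receptor maintain resident macrophages, and CXCL12 with its receptor CXCR4 guides migrating germ cells. Many of these genes lie in families of neighbouring relatives in mammalian genomes.

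Each transcript model carries an alignment score against a named reference transcript and the interval of that transcript it matched. The meaning of a score unit was not given in the sources used here, so it is used only to compare models. It was divided by the number of aligned reference bases, and where a symbol had several loci the locus of the highest score was taken. Over all 16190 named symbols with a score, the median was 1.25 per aligned base, with quartiles of 1.0 and 1.43.

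Ligands and receptors both had lower scores per base than most named genes. The median was 0.87 in the 64 ligands (quartiles 0.73 and 1.03, range 0.22 to 1.37) and 0.95 in the 71 receptors (quartiles 0.70 and 1.10, range 0.27 to 1.69). The receptor median was higher by 0.08, which is less than the spread within either class, and the quartile ranges overlapped. The size of this difference depended on the setting: it was 0.03 with EVM models only, 0.13 over all loci and 0.16 per coding base. It was 0.15 where the aligned stretch spanned at least 90% of the coding length, a setting added after the values had been seen. By definition 25.0% of all named symbols lay under the first quartile of 1.0. Among ligands 44 did, or 68.8%, and among receptors 43, or 60.6%. Above the third quartile lay 0 ligands and 3 receptors, or 4.23%, again against 25.0%. Genes as long as the ligands were not low: the 1880 named symbols within the ligands' quartiles of coding length had a median of 1.28, and the 4817 within the receptors' quartiles 1.27. Where coding length was 600 to 1200 bases, 21 ligands had a median of 0.86, 30 receptors 0.98 and 4985 named symbols 1.26.

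**Figure D1:**
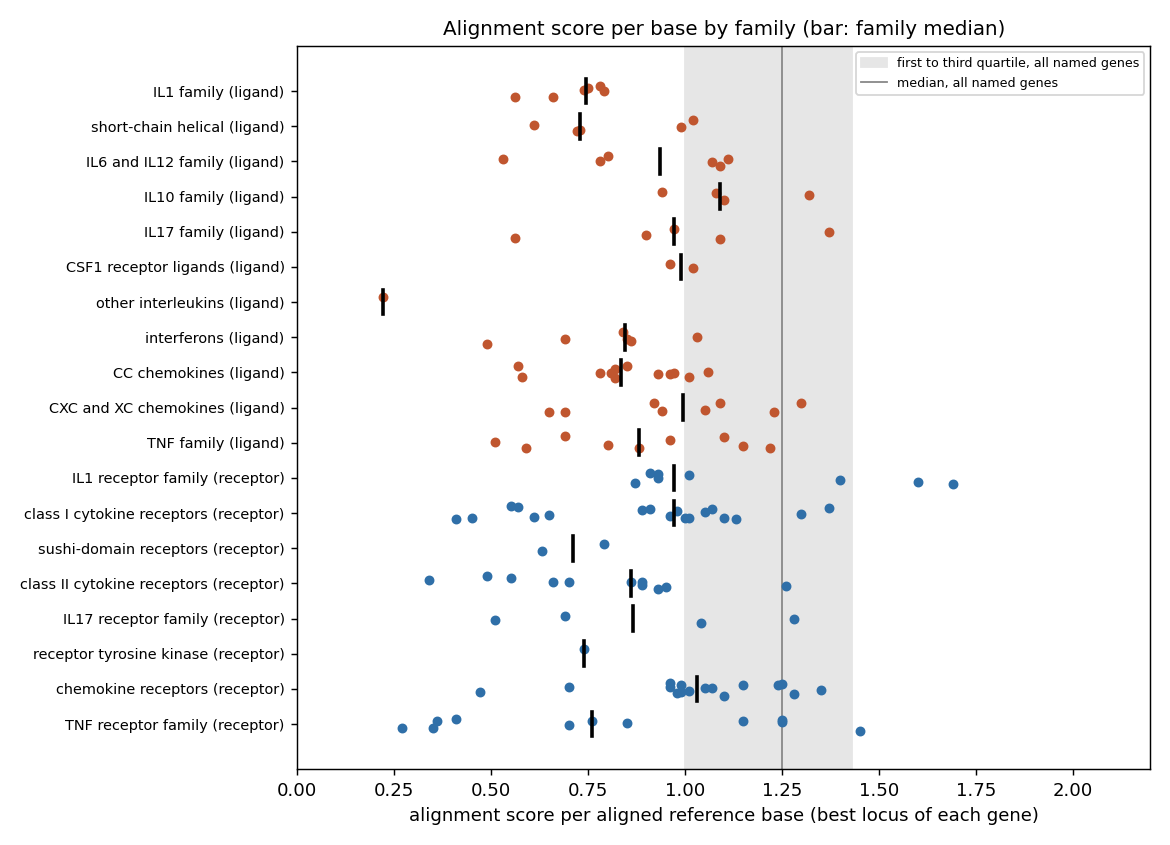
Alignment score per aligned reference base (horizontal axis) of the best locus of each ligand (orange) and receptor (blue), by family; black bars are family medians, and the grey band and line give the quartiles and median of all named genes. Most points lie left of the band, and the 3 points right of it are IL1RAPL2, IL1RAPL1 and TNFRSF21.

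Among ligand families of at least 3 symbols the lowest medians were those of the short-chain helical cytokines, at 0.73 over 5 symbols, and of the IL1 family, at 0.75 over 6. All 6 IL1 family ligands, which include the inflammatory cytokines IL1A and IL1B and the alarmin IL33, lay between 0.56 and 0.79. The highest ligand median over at least 3 symbols was 1.09, in the IL10 family of 4, which holds the anti-inflammatory cytokine IL10. CXC and XC chemokines had a median of 0.99 over 8 symbols, against 0.84 over 12 CC chemokines. The 6 interferon symbols had a median of 0.84, the 9 TNF family ligands 0.88, the 6 members of the IL6 and IL12 families 0.93 and the 5 IL17 family members 0.97.

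The 5 lowest ligands came from different families. IL16, a T cell chemoattractant cut from a larger precursor, scored 0.22 over 1822 aligned bases. IFNB1, the type I interferon of the early antiviral response, scored 0.49, and TNFSF14, a T cell costimulatory ligand, scored 0.51. IL12A, which pairs with IL12B to drive interferon-gamma responses, scored 0.53, less than its partner's 1.09. IL1A followed at 0.56. The 5 highest ligands were IL17B at 1.37, IL10 at 1.32, CXCL12 at 1.30, CXCL2, a neutrophil chemoattractant, at 1.23, and TNFSF11, the osteoclast factor RANKL, at 1.22. In TNFSF11, CXCL12 and CXCL2 the aligned stretch was short, at 269, 275 and 312 bases, or 49.5%, 77.0% and 60.8% of the coding length.

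Among families of at least 3 symbols, medians ran from 0.76 to 1.03 in receptors, against 0.73 to 1.09 in ligands. Chemokine receptors had the highest median, 1.03 over 16 symbols, and 7 of them lay below the first quartile of all genes. Within this family CCR6, the receptor of CCL20, stood lowest at 0.47, XCR1, a receptor of cross-presenting dendritic cells, followed at 0.70, and CXCR4 stood highest at 1.35. Without chemokine receptors the median of the other 55 receptors was 0.89. Class I receptors had a median of 0.97 over 18 symbols, with a range from 0.41 to 1.37. Class II receptors, which bind interferons and IL10 family cytokines, had a median of 0.86, and 10 of 11 lay below the first quartile; the exception was IL20RB at 1.26. The TNF receptor family had a median of 0.76 over 11 symbols and the range 0.27 to 1.45, with all-gene quartiles inside it.

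The lowest receptors were TNFRSF9, the costimulatory receptor 4-1BB, at 0.27, IFNGR1, the ligand-binding chain for interferon gamma, at 0.34, TNFRSF8, the lymphocyte activation antigen CD30, at 0.35, TNFRSF1A, the main receptor of TNF, at 0.36, and CSF2RB, the signalling chain shared by the receptors of IL3, IL5 and CSF2, at 0.41. The highest were IL1RAPL2 at 1.69 and IL1RAPL1 at 1.60, IL1 receptor relatives expressed at synapses, TNFRSF21, the death receptor DR6, at 1.45, IL1RAP, the coreceptor of IL1, at 1.40, and IL6ST, the gp130 chain shared by the IL6 family, at 1.37. The IL1 receptor family thus held 3 of the 5 highest receptors, while its other 5 members lay between 0.87 and 1.01.

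A direct comparison set 57 textbook pairs of a ligand and its receptor side by side, which were drawn up after the values had been seen; they cover 50 ligands and 48 receptors, so pairs share proteins. The receptor had the higher score per base in 36 pairs and the ligand in 21, with a median difference (receptor minus ligand) of 0.13 and quartiles of -0.22 and 0.28. Chemokine pairs were the most uniform: the receptor was higher in 16 of 17, by a median of 0.19, and only CXCL2 with CXCR2 went the other way, by -0.22. CXCL13, which attracts B cells to follicles, scored 0.65 and its receptor CXCR5 1.28. CXCL12 and CXCR4 were both high, at 1.30 and 1.35. In the 27 interleukin and CSF pairs the receptor was higher in 15 and the ligand in 12.

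TNF family and interferon pairs went in both directions. Of 9 TNF pairs the ligand was higher in 5 (median difference -0.17), and of 4 interferon pairs in 3 (median -0.10). All pair counts depend on how pairs were drawn, and the interferon count rests on only 4 pairs. IFNB1 at 0.49 was paired only with IFNAR1 at 0.70, and IFNW1 at 0.69 only with IFNAR2 at 0.49. The crossed pairs were not counted, and IFNL3 with IL10RB differed by only -0.01. TNFSF8 scored 1.15 and its receptor TNFRSF8 0.35, which was the widest gap of all pairs at -0.81. TNF scored 1.10 and TNFRSF1A 0.36. TNFSF13B, the B cell survival factor BAFF, scored 0.59, below its receptors TNFRSF13C at 1.25 and TNFRSF17 at 0.76 and above TNFRSF13B at 0.41. Only 109 bases of TNFRSF13C were aligned.

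**Figure D2:**
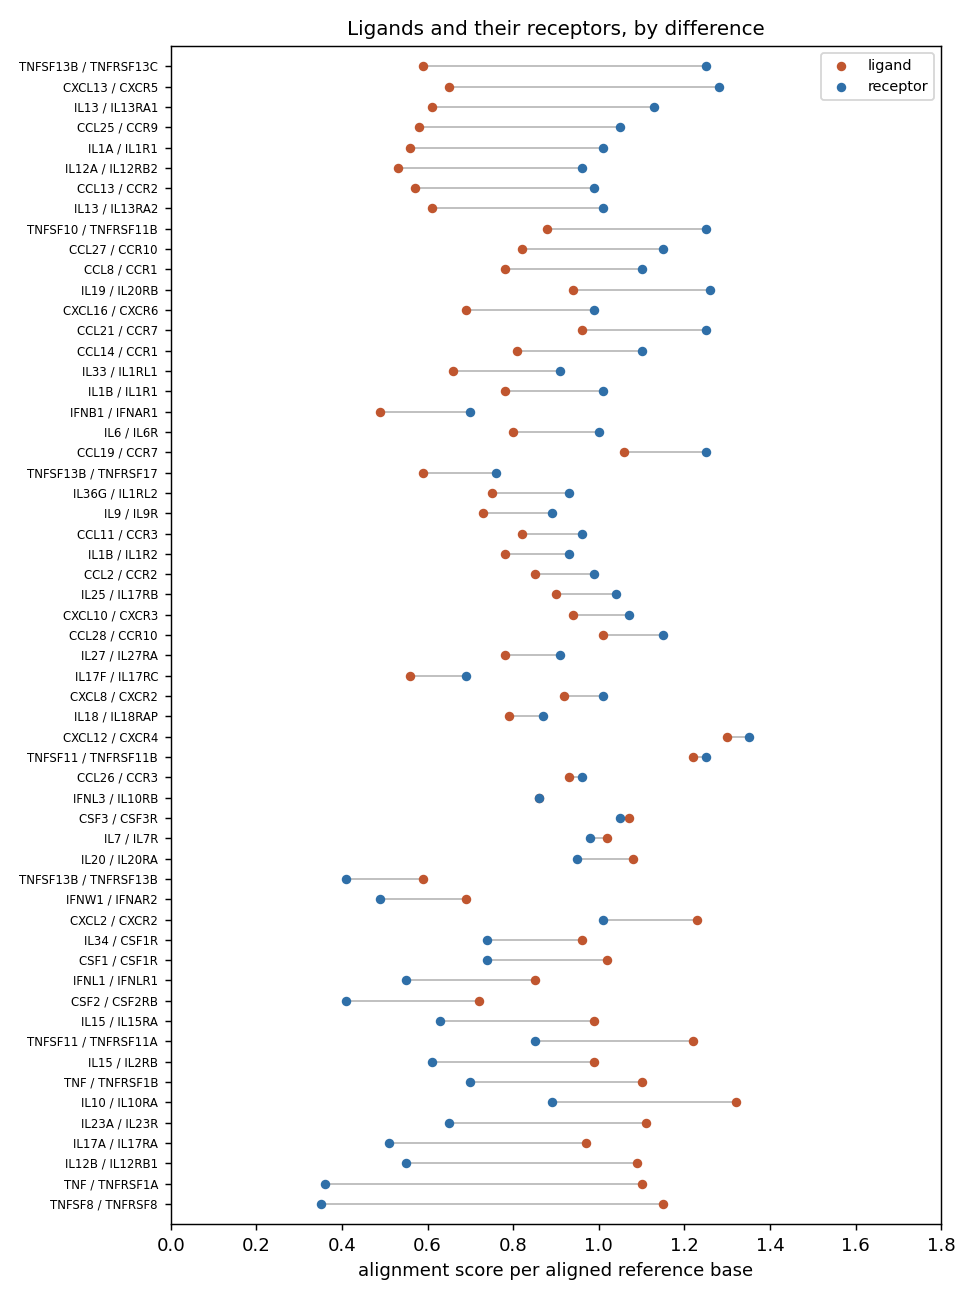
Score per aligned reference base (horizontal axis) of the ligand (orange) and the receptor (blue) of each of 57 pairs, ordered by receptor minus ligand. Pairs at the top, such as TNFSF13B with TNFRSF13C, have the higher receptor, and pairs at the bottom, such as TNFSF8 with TNFRSF8, the higher ligand.

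Ligand models were short and had few coding exons. The median ligand had 4 coding exons (quartiles 3 and 5), 572 coding bases and a span of 5.38 kb, while the median receptor had 8 exons (quartiles 3.5 and 10), 1270 bases and 12.7 kb. The medians of all named symbols were 8 exons, 1308 bases and 13.3 kb, close to those of the receptors. Receptor exon number varied with family: chemokine receptors had 1 to 3 coding exons, class II receptors 5 to 8, class I receptors 8 to 22 and IL17 receptors 11 to 14. TNF receptors, with 3 to 16, and IL1 receptors, with 4 to 10, overlapped most of these ranges. Single-exon models made up 8.76% of all named symbols. Among members they were 5 ligands (7.81%), namely the interferons IFNB1, IFNE, IFNK, IFNL1 and IFNW1, and 10 receptors (14.1%). These receptors were all chemokine receptors, among them CCR1, CCR4, CXCR2, CXCR4 and XCR1. IFNL1 had 1 exon only at its best locus, on scaffold 2, while its further locus on scaffold 36 had 6. In mouse, Ifnk, Cxcr4 and Xcr1 have 2 coding exons each. The longest ligand spans were those of IL7, a lymphocyte survival factor, at 39.5 kb, CXCL10 at 33.1 kb and TNFSF8 at 28.8 kb. Among receptors IL1RAPL1 spanned 464 kb, IL1RAPL2 258 kb and IL1RAP 73.9 kb. These spans are of the best locus, and a further IL1RAPL2 locus lay 245 kb beyond it on the same scaffold.

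Exon numbers of the best locus were compared with the longest coding transcript of the mouse gene of the same symbol. Over all 14325 symbols matched in this way, 39.3% had as many coding exons as in mouse, 37.2% had fewer and 23.4% more. Receptors were close to these shares: of 68 matched, 27 were equal (39.7%), 26 had fewer (38.2%) and 15 more (22.1%). Ligands were equal more often, in 30 of 53 (56.6%), with 12 fewer and 11 more. Ligand models had a median of 4 coding exons against 8 in all named symbols, and no comparison at like exon number was made. Equal numbers were found in 3 of 3 IL10 family ligands and 11 of 16 chemokine receptors. In contrast, 6 of 8 IL1 receptor family models had fewer exons than in mouse and 2 were equal, and only 2 of 11 TNF receptors were equal. Coding length was within 10% of mouse in 29 ligands (54.7%) and 37 receptors (54.4%), close to the 51.6% of all matched symbols.

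**Figure D3:**
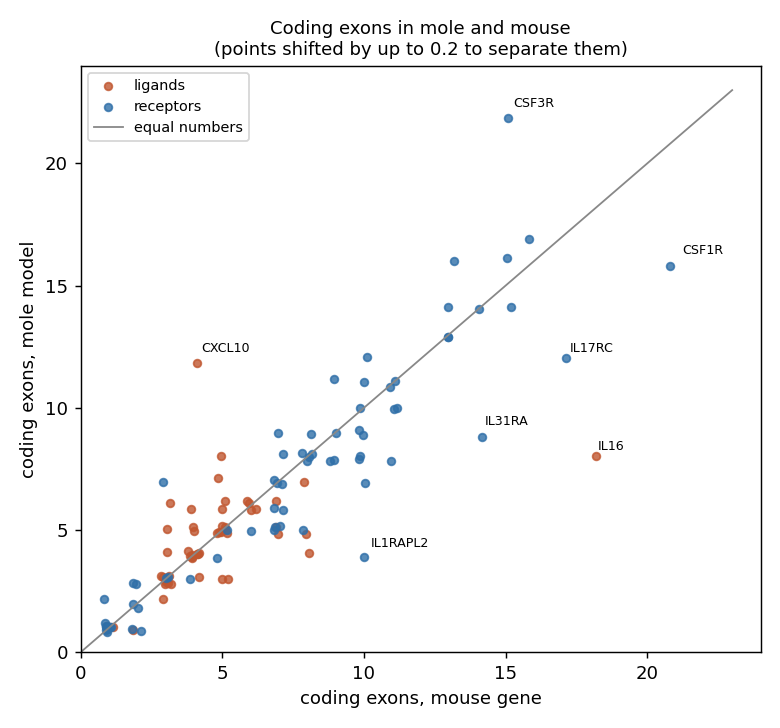
Coding exons of the mole model (vertical axis) against those of the mouse gene (horizontal axis) for 53 ligands (orange) and 68 receptors (blue); the line marks equal numbers. CXCL10 and CSF3R stand far above the line, and IL16, IL1RAPL2, CSF1R, IL17RC and IL31RA far below it.

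The largest excess was in CXCL10, an interferon-induced T cell attractant, with 12 coding exons and 1210 coding bases against 4 exons and 294 bases in mouse. The reference matched only its first 277 coding bases, or 22.9% of the coding length. CSF3R, the granulocyte CSF receptor, had 22 exons against 15, and TNFRSF13C, the BAFF receptor, 7 against 3. At the other end IL16 had 8 exons against 18, with 47.1% of the mouse coding length, and IL1RAPL2 had 4 against 10, with 33.5%. CSF1R (16 against 21), IL17RC (12 against 17) and IL31RA (9 against 14) each had 5 fewer. All these counts are of the best locus, and loci were not joined. Further loci of CSF1R and IL1RAPL2, with 4 and 5 exons, matched other stretches of the reference. Whether they are parts of split models was not tested. The high score per base of IL1RAPL2 rests on the 690 aligned bases of its best locus.

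Models whose aligned stretch covered less than 50% of their coding length made up 6.00% of all named symbols with a score. They included 11 of the 138 members (7.97%): 7 ligands (10.9%), 3 receptors (4.23%) and the antagonist IL36RN. The ligands were the T cell zone chemokine CCL19 at 28.9%, the thymic and gut chemokine CCL25 at 44.1%, CXCL10 at 22.9%, CXCL16 at 44.3%, the interferon-gamma inducer IL18 at 48.9%, IL26 at 42.1% and TNFSF11 at 49.5%. The receptors were IL2RA, the high-affinity chain of the IL2 receptor, at 31.6%, IL9R at 7.55% and TNFRSF13C at 18.9%. For these 11 models the score per base rests on less than 50% of the model, 132 reference bases in the case of IL9R. The aligned stretch runs from the first to the last aligned base of the model, so it can exceed the reference bases matched. In CXCL16 it was 44.3% of 1497 coding bases, against 229 reference bases. In IL4I1, outside this list, it was 75.3% of 1908, against 472. Models outside the list can thus also rest on a small part.

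Further loci were no more common here than elsewhere. Several loci stood under 14.6% of all named symbols, against 7 ligands (10.9%) and 6 receptors (8.45%). Tandem loci, with at most 10 other loci between them on a scaffold, were found for 8.33% of all named symbols, 5 ligands (7.81%) and 4 receptors (5.63%). The ligands had 12 further loci, of which 10 reached at least 50% of the score of the best locus, and the receptors 6, of which 2 did. IFNW1 alone gave 6 of the ligands' further loci, and without it ligands and receptors had 6 each. All 16196 named symbols together had 5294 further loci. Of the 18 further loci of members, 8 had a single exon and 4 lay on short scaffolds, whose last annotated base is below 1000000. Score, exon and scaffold counts were not made over the 5294, so whether members differ from other genes in these was not tested.

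Interferons made up most of the ligand copies. IFNW1, interferon omega, stood at 7 loci with scores from 65.6% to 100% of the highest, 5 of them on scaffold 15 and 2 on short scaffolds. IFNB1 had 2 loci, the lower at 92.7% of the higher. IFNL3, a type III interferon of epithelial defence, had 2 loci, the lower at 86.5%, and IFNL1 had 2, the lower at 56.5%. Further models of IFNL1 and IFNL3 on scaffold 36 overlapped each other on opposite strands (10948110 to 10978512 and 10964797 to 10979453), so they are not separate stretches of the genome. CCL13, a CC chemokine of monocytes and eosinophils, had a further tandem locus at 51.9% of the best score. Further loci of IL1A, at 22.3%, and IL27, at 35.2% on a short scaffold, were lower.

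Among receptors only CXCR2 had a copy of nearly equal score. Its loci lay on scaffold 23 at 24435634 to 24436701 on the plus strand and at 24468539 to 24469606 on the minus strand, each with 1 exon and 1068 coding bases, and the lower score was 94.3% of the higher. They were 31.8 kb apart. In mouse, Cxcr2 on the plus strand and Cxcr1 on the minus strand, both receptors of neutrophil-attracting CXC chemokines, lie 32.4 kb apart on chromosome 1 (GRCm38), and no mole locus carried the symbol CXCR1. Whether the further CXCR2 locus is the counterpart of Cxcr1 was not tested. CSF2RB had loci on opposite strands of scaffold 19, 9.36 kb apart, with the lower at 47.3% of the higher. Mouse also has 2 genes of this kind on opposite strands, Csf2rb and Csf2rb2, 37.0 kb apart on chromosome 15. Their layout differed from that in mole. The further mole locus lay between CSF2RB and IL2RB, whereas in mouse Csf2rb lies between Csf2rb2 and Il2rb. Whether the further locus is the counterpart of Csf2rb2 was not tested.

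Some further receptor loci matched another stretch of the reference transcript than the best locus did. The CSF1R models lay 0.678 kb apart on the plus strand of scaffold 3 and matched reference bases 1091 to 3195 and 273 to 929, with no overlap. The IL1RAPL2 models on scaffold 32 matched reference bases 839 to 1528 and 1588 to 2119, again with no overlap, 245 kb apart. When only further loci that overlapped the best in the reference were counted, a setting added after the values had been seen, 2 receptors had tandem loci instead of 4. IL1RAPL1 had a further single-exon model on scaffold 11, at 31.3% of the best score, and TNFRSF19, an orphan TNF receptor, had a further model of 2 exons and still lower score on a short scaffold.

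Slightly over 1 member in 2 lay in a cluster with another member. A cluster was counted where at least 2 member symbols lay on a scaffold with at most 10 other loci between successive members, whatever their families and the distance in bases: IL17RB and IL17RD, for example, lay 2690 kb apart. There were 25 clusters, holding 33 ligands (51.6%) and 36 receptors (50.7%), or 71 of the 138 members (51.4%). No clustered share was computed for other gene sets of this size, so whether 51.4% exceeds that of other genes was not tested. Ligands and receptors hardly mixed: 12 clusters held ligands without receptors, 12 receptors without ligands, and 1 held both. The mixed cluster joined IL11RA, the IL11 receptor, to the chemokines CCL27, CCL19 and CCL21 within 52.1 kb of scaffold 15, where IL11RA and CCL27 faced each other 0.538 kb apart. Members of 15 clusters all lay on 1 strand, and 14 clusters held only 2 loci.

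Cluster layout mostly matched that of mouse. In 20 clusters at least 2 symbols lay on 1 mouse chromosome, and the strand pattern of the best loci was the same in 19. Of the 7 clusters with at least 3 such symbols, 6 had the same order and 1, the IL1 family, did not. No share of kept order or strand was computed over all genes, so whether clusters differ from the genome in these was not tested. Clusters were narrower in mole in 16 of 20 (80.0%), at a median of 84.6% of the mouse span. Pairs of named genes adjacent in both species were narrower in mole in 75.2% of 11557, with a median of 85.8%, so the clusters were close to the genome as a whole.

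**Figure D4:**
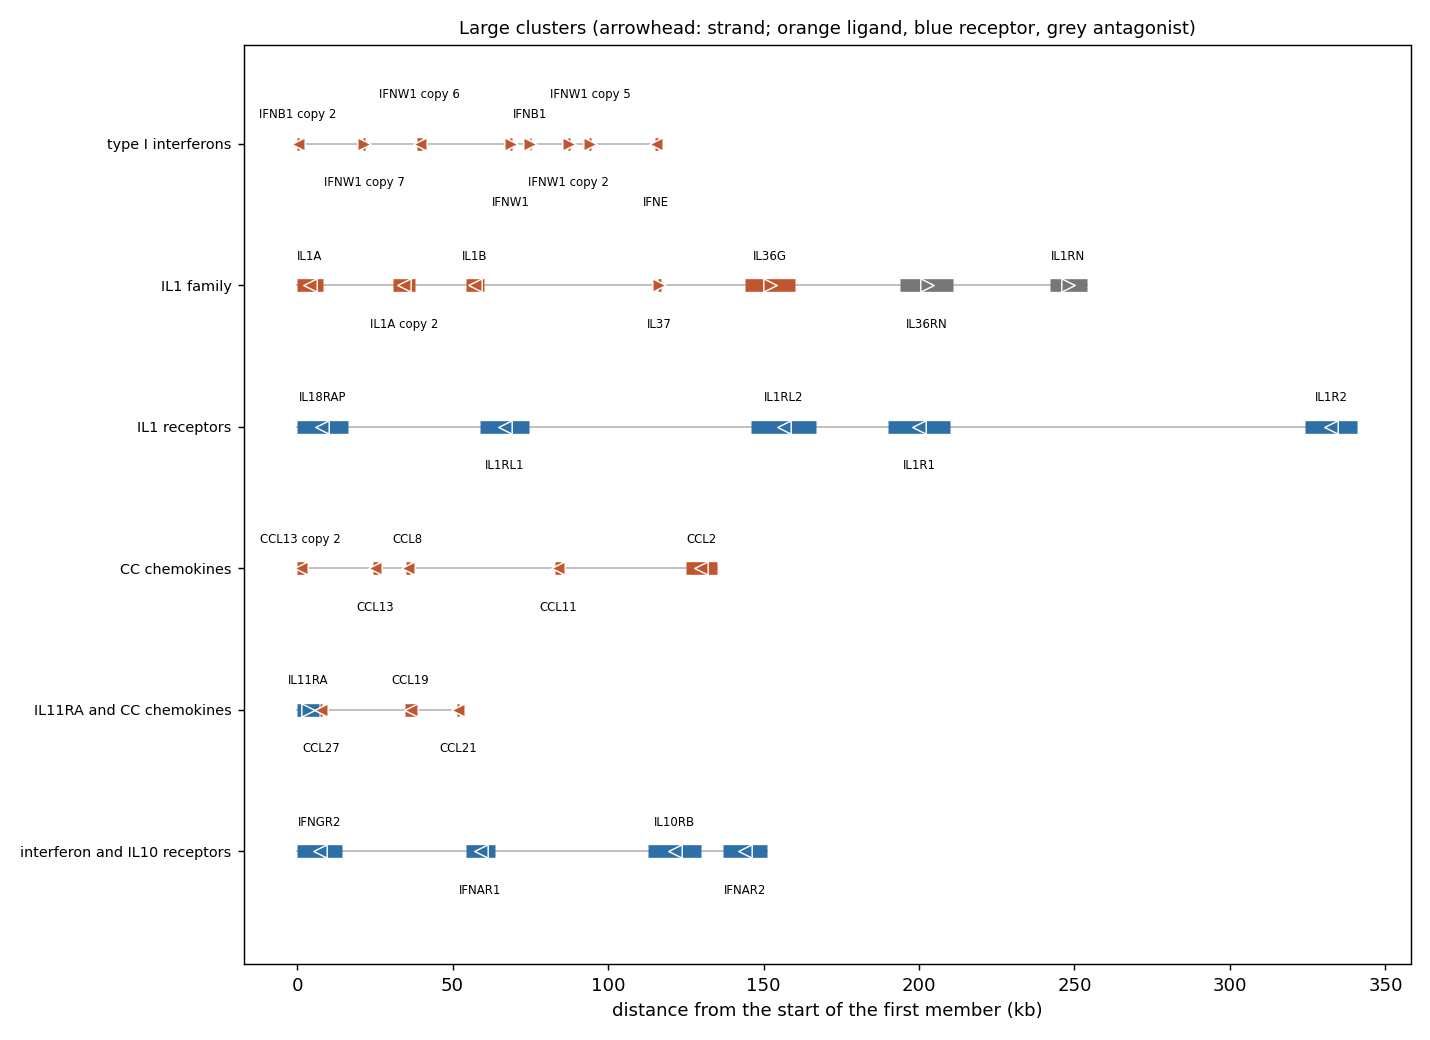
Member loci of 6 large clusters drawn to scale along their scaffolds, as distance in kb from the start of the first member (horizontal axis); boxes are gene spans, arrowheads give the strand, and orange, blue and grey mark ligands, receptors and antagonists. All IL1 receptors and all interferon and IL10 receptors shown point 1 way, whereas type I interferons point both ways.

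The cluster with most loci was that of the type I interferons, on scaffold 15 from 36133465 to 36249287, 116 kb. It held 8 loci, 2 of IFNB1, 5 of IFNW1 and 1 of IFNE, the interferon of the reproductive tract, with KLHL9 and a ribosomal protein locus between them. No mole locus carried an IFNA symbol, whereas mouse has 14 coding Ifna genes, all on chromosome 4. In mouse, Ifnb1 and Ifne lie 358 kb apart end to end with 31 coding genes between them. The best IFNB1 locus lay on the plus strand, opposite to mouse, but the further locus at the far end of the cluster lay on the minus strand as Ifnb1 does, 116 kb from the end of IFNE. These 2 loci differ by little in score, so which is taken decides the match with mouse.

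In span, the IL1 family cluster differed most from mouse. On scaffold 9, from 41937451 to 42191839, IL1A at 2 loci, IL1B, IL37, IL36G, IL36RN and IL1RN followed each other over 254 kb with no other gene between them. IL1A and IL1B lay on the minus strand and the others on the plus strand. Only IL1A, IL1B and IL1RN were matched to mouse by symbol. In mouse, Il1rn lies on chromosome 2 at 24336983 to 24349627 and Il1a and Il1b at 129300714 to 129370330. These 3 genes thus span 105033 kb with 1124 other coding genes. Il1f9 and Il1f5, earlier mouse names of Il36g and Il36rn, lie on the plus strand of that chromosome, as Il1rn does. They start at 24187178 and 24277499, so their order with Il1rn is that of mole IL36G, IL36RN and IL1RN. A cluster of IL1 receptor family genes, which include the receptors of IL1 and IL36 cytokines, lay on the same mole scaffold at 35830122 to 36171330: IL18RAP, IL1RL1, IL1RL2, IL1R1 and IL1R2, all on the minus strand over 341 kb, in the order of mouse chromosome 1, where they span 447 kb.

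Smaller clusters followed the known receptor and ligand groups. IFNGR2, IFNAR1, IL10RB and IFNAR2, chains of the interferon and IL10 receptors, lay on 1 strand of scaffold 4 over 151 kb, against 179 kb on mouse chromosome 16. IL20RA, IL22RA2 and IFNGR1 lay within 115 kb of scaffold 7, against 168 kb in mouse. IL10, IL19 and IL20 lay within 80.2 kb of scaffold 35, against 117 kb in mouse. The monocyte and eosinophil attractants CCL13, CCL8, CCL11 and CCL2 lay on 1 strand of scaffold 25 within 135 kb. The part of it shared with mouse was wider in mole, 99.7 against 81.0 kb. IL17A and IL17F, the cytokines of Th17 cells, lay 54.3 kb apart end to end, against 53.2 kb in mouse.

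Symbols without a locus were commoner among ligands. A list of family members, drawn up from textbook knowledge, gave a locus to 63 of 119 ligands and 71 of 88 receptors. All 11 class II receptors and 16 of 17 chemokine receptors had one, but 6 of 22 interferons and 11 of 21 TNF receptors. Part of the ligand shortfall is in symbols of human gene copies, such as the 13 IFNA symbols on the list. No locus carried the symbol of IL2, IL3, IL4, IL5 or IL21, T cell growth and differentiation factors, of IFNG, or of the chemokines CCL5, CXCL9 and CXCL11. A symbol without a locus shows only that no model bears that name.

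The gene table of a later mole assembly, MPIMG_talOcc4v2.1, bears on this. Of the 74 listed symbols without a locus, 27 had a protein-coding entry there: 18 ligands, 8 receptors and IL18BP, a decoy for IL18. The named genes on both sides of 25 of these also lay near each other in talOcc3. Between them stood no model in 8 cases, only models with other symbols in 9, and at least 1 model without a symbol in 8. No model lay between KIF3A and IL13, 28.9 kb, where the later table places IL4, the cytokine of type 2 immunity. The same held for IL5 between RAD50 and IRF1 (54.2 kb), for IFNG between IL26 and DYRK2 (410 kb) and for IL18R1, the IL18-binding chain, between IL1RL1 and IL18RAP (42.7 kb). Between NUDT6 and ADAD1, the neighbours of IL2, lay 2 models without a symbol in 60.0 kb. The 118 kb between the neighbours of CXCL9 held 4 models, namely the 12-exon CXCL10 model, SDAD1, PNPLA8 and 1 without a symbol, and the 117 kb between those of CXCR1 held both CXCR2 loci. Conversely, 123 of the 138 members had an entry in the later table, and 15 did not; of the 13 members with several loci, 7 had 1 entry and 6 had none under that symbol.

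Cytokine genes named by other conventions had scores like those of the members. Of 18 further ligands 16 had a locus, with a median of 0.97 per aligned base, from 0.31 in TSLP, an epithelial cytokine, to 1.56 in the ectodysplasin EDA. Of 20 further receptors 17 had one, with a median of 0.95, from 0.30 in the death receptor FAS to 1.48 in CNTFR. The signalling proteins downstream were nearer to the genome: 36 of 38 had a locus, with a median of 1.21, and 11 (30.6%) lay below the first quartile, against 25.0% of all. Examples are STAT3 at 1.51 and JAK2 at 1.49, the transducers of IL6ST and other class I receptors, beside STAT2 at 0.91 and TYK2 at 0.99, which serve the interferon receptors.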

How the data were processed

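RNA of mole and mouse gonads was sequenced in 35 libraries. STAR 2.6.1d and mm9 appear in the submitters' processing notes without a role. The file used is the annotation of talOcc3, with 0 columns of per-sample values, so the planned expression fit was not run. Each transcript model carries a score deposited by the authors and its reference interval. The making of the score and of the EVM, ALN and exonerate models was not given in the sources used here. Feature start and end positions, deposited by the authors, are 1-based scaffold positions in bases, a unit other than the score.

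Gene, transcript and coding lines were joined in Python 3.11.15 (numpy 2.4.6, scipy 1.17.1, matplotlib 3.10.9). Score per aligned base is the score over the aligned reference interval, at the best locus; it does not separate base differences from unaligned stretches inside that interval. Mouse genes are coding genes of GENCODE M21 (GRCm38), matched by symbol. The later assembly gave names and gene order only, with sequence boundaries inferred from start positions. The counting of tandem loci, clusters and score ratios was run on simulated data over 23336 loci. It found 200 of 200 planted tandem symbols and 20 of 20 planted clusters, with 0 false ones. Score factors of 0.7 and 1.0 came back as 0.70 and 1.0. Planted loci always met the distance rule and all other symbols were unique, so these outcomes were set by the design. They check the counting only, and show nothing about merged, split or misnamed models.

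Members, families and lists were chosen with earlier results of these data known. Named genes were the 5 highest and 5 lowest scores per base in each class, the 3 largest exon excesses and deficits against mouse with ties, members with several loci, the 3 longest spans per class, and the largest clusters; other named genes, and the pairs, were chosen after their values were seen. A gene that this rule would name, and the cluster that holds it, are not reported here. No sequence is printed. Alternatives covered the locus, denominator, model kind, low-confidence marks, aligned length, scaffold, class, short gaps, copy definition and cluster distance.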

Additional observations from a re-analysis of the deposited data

How the results depend on the processing

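Of 96 alternative values, 82 stayed within the spread between genes or, for counts, within 1.5 times. Medians of a single class and counts have no direction, so only the receptor minus ligand differences could reverse, and none did. The receptor median minus the ligand median, 0.08, stayed within that spread but ranged from 0.03 with EVM models only to 0.16 per coding base. Leaving out low-confidence loci removed no member, so its 12 values were fixed in advance. Without them 70 of 84 values stayed within those limits. With the score per coding base the ligand median was 0.71. Over all loci 11 ligand loci had a single exon. With EVM models only, single-exon models numbered 0 among ligands and 0 among receptors, and 16 receptors had the mouse exon number. With names as written, several and tandem loci were 0 and 0 in ligands and 0 and 0 in receptors, by construction. With further loci of at least 50% of the highest score, 2 receptors had several loci and 2 tandem loci. With more than 1 exon required, 4 ligands had several loci and 3 tandem loci. With overlap in the reference interval required, which was added after seeing the data, 2 receptors had tandem loci. No paired analysis was possible because no column holds values of a library, and the replicate block and leaving out replicates were not run for the same reason. The models limit all results: a merged, split or missing model changes score, exons and copies at once, and the depth behind the models is unknown.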

Other observations

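Of the 36 signalling genes downstream of the receptors that had a locus, 3 had several. TRAF3, an adaptor of TNF receptors, stood at 4 loci, NFKB1 at 3 and RELA at 2, and their best models had 2, 10 and 6 coding exons against 10, 23 and 11 in mouse. TRAF4 had 20 exons against 7 in mouse. No locus carried the symbols SOCS1 and SOCS3, feedback inhibitors of JAK signalling, which both have an entry in the later mole assembly.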
